A study of Mus musculus with 6 samples.

Results

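Interferon-stimulated genes were followed in mouse regulatory T cells (Tregs) that lacked the adenosine receptor A2AR or were given its agonist. The list held 33 genes, 31 of them among the 18193 that the array's annotation names on a probe set of their own. It was split into 24 type I members, induced mainly by interferons alpha and beta, and 9 gamma-type members, which interferon gamma also induces strongly. All probe sets annotated to a listed gene were taken, which gave 45 probe sets. Isg15 shares its probe set with another gene and Ifi44 had none listed, and neither was analysed here. The brightest probe set stood for each gene, and 26 members, 17 of type I and all 9 of gamma type, passed the limit for dim genes and were tested.

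The study asked what A2AR, a receptor for extracellular adenosine that signals through cAMP, does in Tregs, the CD4 T cells that hold other immune cells in check. Sorted CD4+CD25+FoxP3+ cells came from spleen and lymph nodes of C57Bl/6 mice aged 8 to 11 weeks, all carrying the FoxP3GFP reporter used for the sort, and were kept for 18 h in culture with no activating stimulus named. There were 3 groups of 2 arrays. WT ATL1222 held A2AR+/+FoxP3GFP cells with 10 nM of ATL1222, an agonist selective for A2AR. KO vehicle held A2AR-/-FoxP3GFP cells with DMSO, and WT vehicle held A2AR+/+FoxP3GFP cells with DMSO. Agonist-treated knockout cells were not part of the design. The replicates are labelled biological, but the labels give neither the number of animals behind an array nor whether animals were pooled, so the tests below measure the spread between arrays.

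Interferons act through receptors on the cell surface that switch on Janus kinases and STAT transcription factors. Type I interferons act mainly through a complex holding Stat2 and Irf9 at interferon-stimulated response elements (ISRE), and interferon gamma mainly through gamma-activated sites (GAS). The products block virus replication, tag and edit proteins, cut and load peptides for antigen presentation, and feed back on the pathway. In T cells a low level of many of these genes is kept up without infection.

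The promoters of 26 members were in the RefSeq table used (GRCm38.p6, 250 bases before to 50 after the listed start), matched by symbol, while Mx1, Mx2, Oas2, Usp18, Zbp1, Rtp4 and Parp14 were not matched. The core of an ISRE, the letters GAAA repeated after a gap of any 2 bases, was searched on both strands and found in 12 of the 26 (46.2%), against 943 of all 27025 promoters (3.49%). It was present in 8 of 17 type I and 4 of 9 gamma-type promoters. The core of a GAS, TTCNNNGAA, was found in 7 of 26 (26.9%), against 8.47% of all promoters. It was present in 4 of 17 type I and 3 of 9 gamma-type promoters. Matches of both motifs may overlap, and a match describes letters, not binding. The 160 bases before the start of 6 members are shown because they hold the motifs singly, in pairs and combined, in members of both classes. Capitals mark either motif on either strand, so an ISRE core on the other strand reads TTTC, 2 bases, TTTC.
Ifit1 (chr19:34640729-34640888, plus strand): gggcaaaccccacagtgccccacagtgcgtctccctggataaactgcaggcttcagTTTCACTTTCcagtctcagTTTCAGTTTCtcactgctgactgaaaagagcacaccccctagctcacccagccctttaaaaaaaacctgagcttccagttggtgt
Ifit3 (chr19:34583369-34583528, plus strand): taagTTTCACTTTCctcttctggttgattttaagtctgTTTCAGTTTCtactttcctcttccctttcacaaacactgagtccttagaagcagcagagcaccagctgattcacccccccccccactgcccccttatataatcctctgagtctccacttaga
Bst2 (chr8:71537473-71537632, minus strand): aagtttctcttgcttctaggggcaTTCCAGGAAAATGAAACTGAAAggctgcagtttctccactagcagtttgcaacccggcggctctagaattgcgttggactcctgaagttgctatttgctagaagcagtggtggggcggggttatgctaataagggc
Gbp3 (chr3:142559884-142560043, plus strand): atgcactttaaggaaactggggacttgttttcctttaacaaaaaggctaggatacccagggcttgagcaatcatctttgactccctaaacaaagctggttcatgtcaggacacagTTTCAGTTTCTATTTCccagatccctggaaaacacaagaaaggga
Irf1 (chr11:53769854-53770013, plus strand): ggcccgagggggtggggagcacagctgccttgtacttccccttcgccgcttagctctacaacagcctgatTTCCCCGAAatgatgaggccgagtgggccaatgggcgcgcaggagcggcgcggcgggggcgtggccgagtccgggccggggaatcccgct
Igtp (chr11:58199396-58199555, plus strand): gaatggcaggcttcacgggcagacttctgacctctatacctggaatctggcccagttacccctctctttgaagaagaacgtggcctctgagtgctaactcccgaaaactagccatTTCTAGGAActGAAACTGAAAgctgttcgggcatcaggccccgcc
Ifit1 and Ifit3, type I members, each carried a pair of separate ISRE cores, at 104 to 95 and 85 to 76 bases before the start in Ifit1 and at 156 to 147 and 122 to 113 in Ifit3. Irf1, a gamma-type member, carried a GAS core at 90 to 82 bases before its start and no ISRE core in the window. Gbp3, also gamma-type, carried overlapping ISRE cores and no GAS core. Bst2 of type I and Igtp of gamma type were the 2 members with both motifs, side by side or overlapping. Both motifs thus occurred in both classes.

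Some facts of the arrays bear on what follows. The median signal of an array was between 74.5 and 98.0, after the authors had scaled all 6 to the same trimmed mean. Of 8 Treg markers, 7 were above the limit, the brightest being Ikzf2 (Helios), while the 1 probe set of Foxp3, the gene of the sort, stayed at 7.18 to 53.5. Of the listed markers of other cells, no myeloid marker passed 123.3, no CD8 T or NK cell marker 249.1 and no B cell marker 258.7. No plasmacytoid dendritic cell marker other than the member Bst2 passed 302.5. In that order 1 of 6, 2 of 5, 4 of 5 and, without Bst2, 4 of 6 were above the limit. Spiked-in poly-A control RNAs were brighter on replicate 1 than on replicate 2 in every group, by ratios of 1.06 to 2.19. In bulk RNA, fewer cells that express a gene and less RNA per cell cannot be told apart.

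The comparisons asked what the agonist changes in wild-type cells, what receptor loss changes without agonist, and how far agonist-treated and receptor-deficient cells stand apart. The last differs in genotype and treatment at once, which cannot be told apart there, and shares arrays with both others. No member rose or fell in any comparison (limma on log2(signal + 16), the scale of every log2 value here, Benjamini-Hochberg adjusted p over all 10916 genes tested, threshold 0.05). With ATL1222 against WT vehicle 0 of 26 members passed, with adjusted p = 0.998 for each, where 23 of all genes (0.211%) passed, 0.202% being higher and 0.00916% lower. In the knockout against WT vehicle 0 of 26 passed, with adjusted p = 1.00 for each, where 3 genes (0.0275%) passed, all of them lower. With ATL1222 against the knockout 0 of 26 passed, the smallest adjusted p being 0.546, where 109 genes (0.999%) passed, 0.879% being higher and 0.119% lower. At an unadjusted p below 0.05 the counts were 0, 1 and 3 of 26 in the same order, against 5.03%, 3.89% and 8.48% of all genes. A fit with the replicate number as a block also called 0 members in each comparison, with smallest adjusted p of 0.641, 0.595 and 0.255, where it called 0.724%, 0.0824% and 2.42% of all genes. When all 45 member probe sets were tested separately among 34945, again 0 passed in each comparison, and their smallest adjusted p was 0.748.

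**Figure D1:**
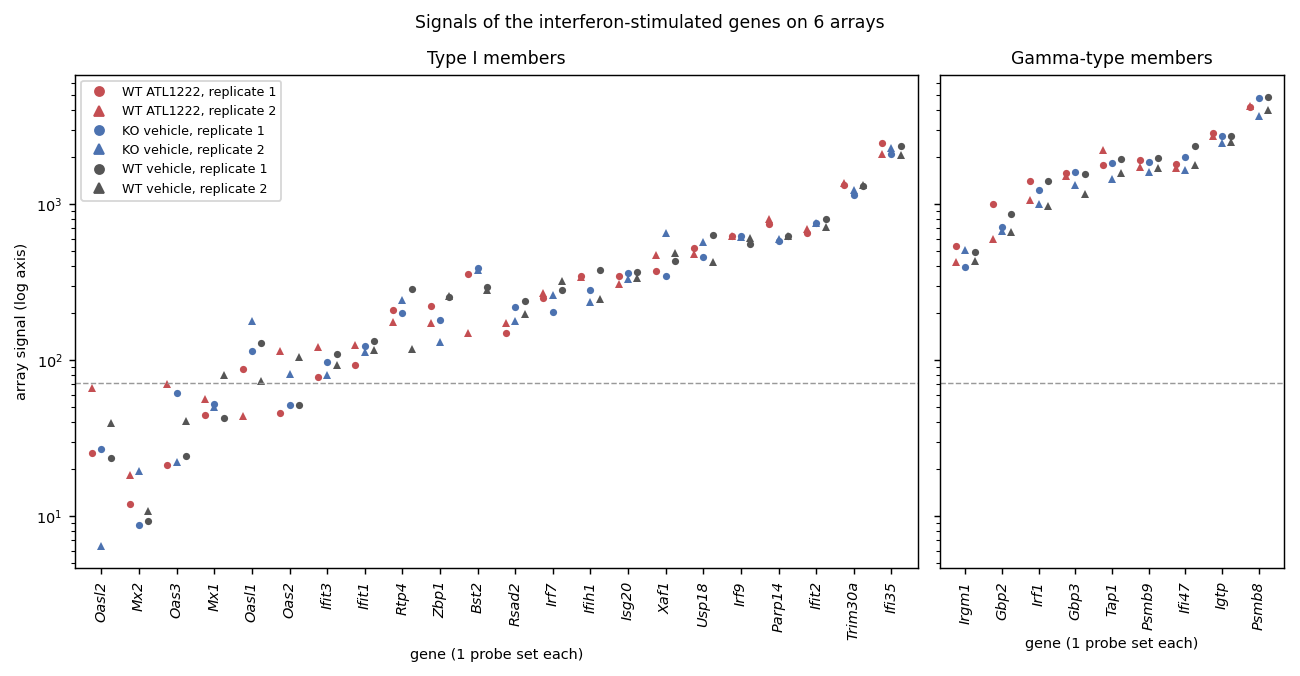
Array signal (log axis, linear units of the authors) of the 31 members with a probe set of their own, type I left and gamma-type right, ordered by lowest signal. Each point is 1 array (circle replicate 1, triangle replicate 2, WT ATL1222 left of KO vehicle and WT vehicle), the dashed line is the limit for testing at a signal of 71.2, and heights of different genes are not comparable because each has its own probes. The colours interleave for most genes, and the widest spreads stand near or below the line, as for Oasl2 and Oasl1.

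Genes outside the list did pass the test on these arrays. The example given here was chosen as a gene that changed, and had the smallest limma p of all 10916 genes in each comparison. Rgs2, a regulator that turns G proteins off, had signals of 12115 and 12894 with ATL1222, 1592 and 1285 in the knockout, and 4051 and 3255 in WT vehicle. Its log2 difference was 1.78 ± 0.15 (SE) with ATL1222 against WT vehicle, 3.11 ± 0.15 against the knockout, and -1.33 ± 0.15 in the knockout against WT vehicle. It passed in each comparison, but with no variance trend the adjusted p was 0.345 with ATL1222 against WT vehicle and 0.953 in the knockout. The knockout call was also lost with probe sets averaged (adjusted p = 0.7003) and with every probe set separate (adjusted p = 0.0543). Beside this gene, member differences lay between -0.52 and 0.30 with ATL1222 against WT vehicle, between -0.68 and 0.49 in the knockout against WT vehicle, and between -1.01 and 0.40 with ATL1222 against the knockout.

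The precision can be read from the 95% intervals of the fold changes. With ATL1222 against WT vehicle 25 of 26 intervals (96.2%) lay within 2-fold either way, the exception being Oasl1, against 74.3% of all genes. In the knockout against WT vehicle 22 of 26 (84.6%) did, the exceptions being Bst2, Ifit3, Oasl1 and Zbp1, against 75.1% of all genes. With ATL1222 against the knockout 24 of 26 (92.3%) did, the exceptions being Bst2 and Oasl1, against 71.7%. All 9 gamma-type intervals stayed within 2-fold in every comparison, and 9, 8 and 7 of them within 1.5-fold in the order just used. Of the 17 type I intervals 6, 7 and 6 (35.3%, 41.2% and 35.3%) lay within 1.5-fold. The shares of all genes within 1.5-fold were 37%, 38% and 33.4%, so for most type I members a 1.5-fold change was not excluded. The median standard error was 0.170 for the gamma-type members, 0.243 for type I members and 0.231 for all genes.

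**Figure D2:**
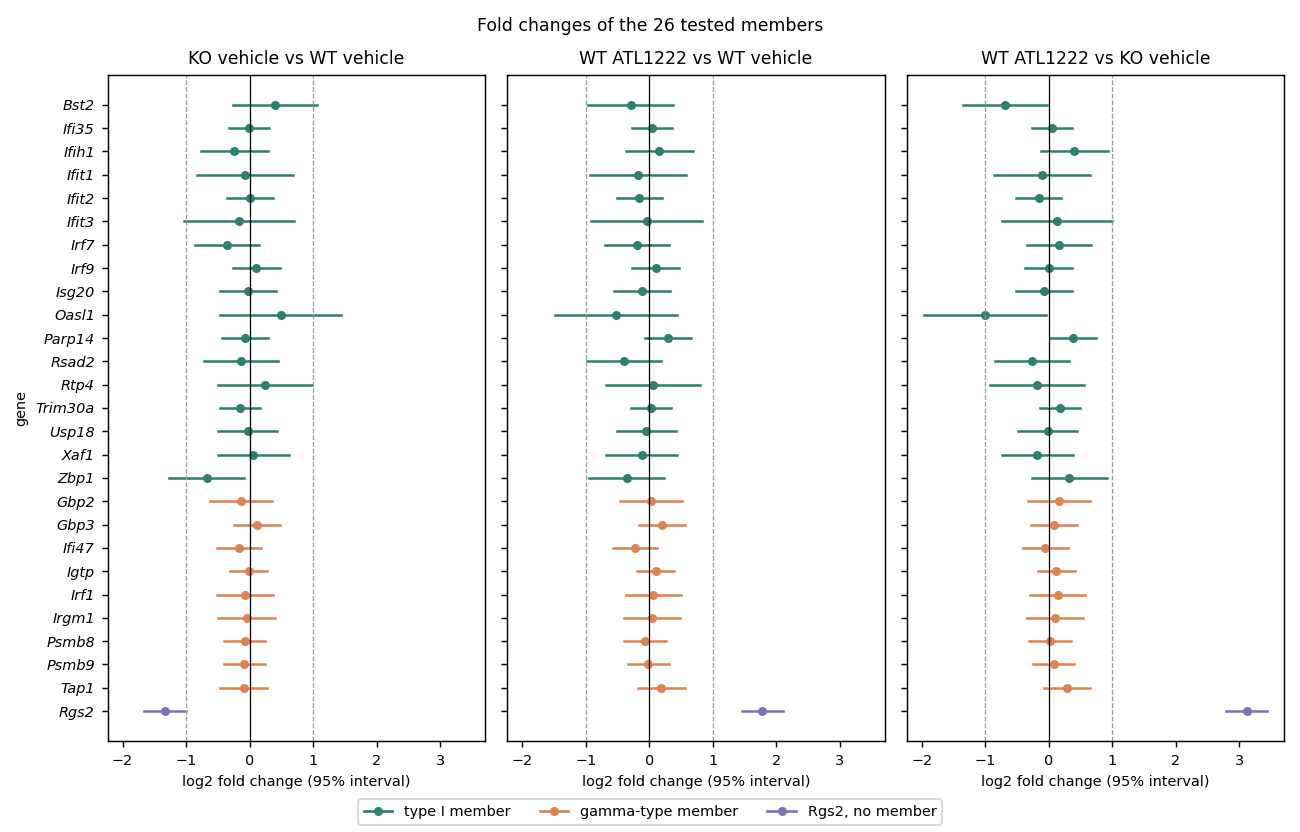
Log2 fold change (x axis) with its 95% interval from the limma fit for the 26 tested members and Rgs2, in panels for the 3 comparisons. Rgs2 had the smallest p of all genes in each comparison. Dashed lines mark a 2-fold change either way: member intervals gather around 0, the widest belongs to Oasl1, and Rgs2 lies beyond the members in each panel.

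Among the gamma-type members, the antigen-processing genes had groups that overlapped throughout on the brightest probe set of each. Psmb8, a catalytic subunit of the immunoproteasome, had 4221 and 4270 with ATL1222, 4794 and 3684 in the knockout, and 4869 and 4046 in WT vehicle. Psmb9, another such subunit and on chromosome 17 like Psmb8, had 1911 and 1732 with ATL1222, 1865 and 1597 in the knockout, and 1976 and 1708 in WT vehicle. Tap1, on the same chromosome, is part of the pump that moves peptides into the endoplasmic reticulum. It had 1797 and 2226 with ATL1222, 1838 and 1458 in the knockout, and 1937 and 1585 in WT vehicle. On these probe sets the largest difference of the 3 genes was Tap1 with ATL1222 against the knockout, at log2 0.29 ± 0.17 (adjusted p = 0.739). The dimmer Psmb8 probe set gave -0.47 ± 0.36 with ATL1222 against WT vehicle and -0.28 ± 0.36 in the knockout against WT vehicle. With ATL1222 against the knockout it gave -0.19 ± 0.36. The dimmer probe sets of Tap1 reached no more than 40.1, and their largest difference was 0.93 ± 0.50 in the knockout against WT vehicle.

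Some gamma-induced GTPases attack the membranes around pathogens inside cells, and others regulate GTPases of their own family. Igtp had 2870 and 2757 with ATL1222, 2735 and 2452 in the knockout, and 2742 and 2501 in WT vehicle. Both agonist arrays lay above all 4 vehicle arrays, with a log2 difference of 0.10 ± 0.14 against WT vehicle and 0.12 ± 0.14 against the knockout. Ifi47 had 1807 and 1695 with ATL1222, 1997 and 1656 in the knockout, and 2349 and 1784 in WT vehicle, with groups that overlapped in every comparison. It had the smallest p of the gamma-type members with ATL1222 against WT vehicle, at log2 -0.22 ± 0.16 (adjusted p = 0.998), and without replicate 1 of WT vehicle the difference was -0.03. Irgm1, which regulates other GTPases of its family, ranged over 396.5 to 538.8 on the 6 arrays. Of the guanylate-binding proteins, Gbp2 ranged over 594.0 to 1010 on its brightest probe set and Gbp3 over 1167 to 1615, each with groups that overlapped. The other probe set of Gbp2 had 420.3 and 487.7 in the knockout, below the 779.1 and 559.0 in WT vehicle. With ATL1222 it had 903.1 and 421.7. Its log2 differences against WT vehicle were -0.09 ± 0.30 with ATL1222 and -0.53 ± 0.30 in the knockout. With ATL1222 against the knockout its difference was 0.44 ± 0.30.

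Irf1, the transcription factor that carries much of the gamma response, had signals of 1413 and 1063 with ATL1222, 1238 and 997.1 in the knockout, and 1417 and 969.1 in WT vehicle. Within every group replicate 1 was above replicate 2, by more than any difference between group means. Its log2 differences were 0.06 ± 0.20 with ATL1222 against WT vehicle, -0.08 ± 0.20 in the knockout against WT vehicle, and 0.14 ± 0.20 with ATL1222 against the knockout.

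The type I members include regulators of the response itself. Irf7, the factor that amplifies type I interferon production, had 251.7 and 270.4 with ATL1222, 204.7 and 260.9 in the knockout, and 282.6 and 322.2 in WT vehicle. Both WT vehicle arrays were above the other 4, but neither difference passed: log2 -0.20 ± 0.24 with ATL1222 (adjusted p = 0.998) and -0.36 ± 0.24 in the knockout (adjusted p = 1.00). Irf9, the DNA-binding part of the type I complex, had 622.5 and 621.7 with ATL1222, 625.9 and 620.3 in the knockout, and 551.8 and 606.4 in WT vehicle. It had the smallest spread of all members, 1.13-fold over the 6 arrays, and log2 differences of 0.10 ± 0.17 in both comparisons with WT vehicle. Usp18, which removes Isg15 from proteins and damps the type I receptor, had 524.7 and 482.4 with ATL1222, 455.9 and 571.7 in the knockout, and 635.9 and 427.6 in WT vehicle. Its WT vehicle arrays enclosed the other 4.

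The Ifit genes bind viral RNA and sit together on chromosome 19. Ifit2 had 656.8 and 697.9 with ATL1222, 754.9 and 763.3 in the knockout, and 801.0 and 714.9 in WT vehicle. The agonist arrays were below the other 4, by log2 -0.16 ± 0.17 against each vehicle group. Ifit1 ranged over 93.0 to 133.2 and Ifit3 over 78.1 to 121.3, with groups that overlapped. These are the genes whose promoters, shown above, carry paired ISRE cores. Near-identical relatives, such as Ifit3 and Ifit3b, can share probe sequence, which was not examined.

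Rsad2 encodes viperin, an antiviral enzyme. It had signals of 150.2 and 172.9 with ATL1222, 217.8 and 177.1 in the knockout, and 239.7 and 196.3 in WT vehicle. The agonist arrays were the 2 lowest, with log2 -0.40 ± 0.27 against WT vehicle (adjusted p = 0.998). The 2 dimmer probe sets of the gene gave -0.05 ± 0.55 and -0.26 ± 0.36 for the same comparison. Isg20, an RNA exonuclease, stayed within 308.3 to 369.7 on the 6 arrays.

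Bst2 encodes tetherin, which holds budding viruses on the cell surface. It had 357.1 and 149.9 with ATL1222, 390.6 and 378.5 in the knockout, and 294.5 and 283.9 in WT vehicle. The knockout arrays were the highest, and the 2 agonist arrays stood on either side of WT vehicle. The log2 difference was 0.39 ± 0.31 in the knockout against WT vehicle (adjusted p = 1.00) and -0.69 ± 0.31 with ATL1222 against the knockout (adjusted p = 0.555). The difference from the knockout rested on replicate 2 of WT ATL1222: it was -0.10 without that array and -1.27 without replicate 1 (adjusted p = 0.0823). Bst2 also marks plasmacytoid dendritic cells, whose other 6 listed markers summed to 708.9 to 860.8 with ATL1222, 736.4 to 786.7 in the knockout, and 732.7 to 844.2 in WT vehicle, so the groups overlapped. Of these, 4 were above the limit, and the defining marker Siglech and Ly6d were below it. Their part in the Bst2 values was not tested.

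The oligoadenylate synthetases make the messenger that switches on an RNA-cutting enzyme, and their probe sets and those of their relatives were dim. Oasl1, a relative that in mice restrains Irf7 translation, had 88.0 and 44.1 with ATL1222, 114.6 and 177.6 in the knockout, and 128.0 and 73.5 in WT vehicle. It showed the largest difference of any tested member, log2 -1.01 ± 0.45 with ATL1222 against the knockout (adjusted p = 0.546), without overlap between those groups. The value was -0.61 without replicate 2 of WT ATL1222, -0.72 without replicate 2 of KO vehicle, and -1.40 without replicate 1 of WT ATL1222. Against WT vehicle its difference was -0.52 ± 0.45 with ATL1222 and 0.49 ± 0.45 in the knockout, both with overlapping groups.

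The members below the limit were Oas2, Mx1, Oas3, Oasl2 and Mx2. Their mean values of log2(signal + 16) were 6.45, 6.12, 5.73, 5.46 and 4.85 in that order, Oas2 lying just under the limit of 6.45. The dimmest members that were tested, Ifit3, Oasl1 and Ifit1, had 6.80, 6.81 and 7.05. Oasl2 ranged over 6.44 to 66.3 on the 6 arrays, a 10.3-fold span, and Mx2 over 8.77 to 19.5. Mx1, a virus-trapping GTPase whose gene is known to be defective in C57Bl/6 mice, ranged over 42.8 to 80.4. With no limit applied these 5 genes had adjusted p of 0.854 to 1.00 over the 3 comparisons.

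The sensors of foreign nucleic acid held the member with the smallest p in the knockout against WT vehicle. Zbp1, which detects left-handed nucleic acid and can start necroptosis, had 221.9 and 173.8 with ATL1222, 180.3 and 131.0 in the knockout, and 253.4 and 258.0 in WT vehicle. Both WT vehicle arrays were above the other 4, with log2 -0.68 ± 0.27 in the knockout (adjusted p = 1.00) and -0.35 ± 0.27 with ATL1222 (adjusted p = 0.998). The other Zbp1 probe set had 172.1 and 226.4 with ATL1222, 103.9 and 160.4 in the knockout, and 173.8 and 137.3 in WT vehicle. There the groups overlapped in the knockout comparison, the log2 difference was -0.23 ± 0.34, and with ATL1222 it had the opposite sign, 0.32 ± 0.34. Ifih1, the sensor of long double-stranded RNA, had 347.7 and 341.6 with ATL1222, 280.4 and 235.9 in the knockout, and 380.2 and 247.9 in WT vehicle. Its agonist arrays were above the knockout arrays, by log2 0.40 ± 0.24 (adjusted p = 0.752), and between the WT vehicle arrays.

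Parp14, an enzyme that attaches ADP-ribose to proteins, had the smallest p of all members with ATL1222 against WT vehicle. It had signals of 742.9 and 799.7 with ATL1222, 581.0 and 600.9 in the knockout, and 623.0 and 624.5 in WT vehicle. The agonist arrays were above all 4 others, with log2 0.30 ± 0.17 against WT vehicle (adjusted p = 0.998) and 0.37 ± 0.17 against the knockout (adjusted p = 0.551). Its dimmer probe set gave 0.62 ± 0.50 and -0.02 ± 0.50 for these comparisons.

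Of the remaining type I members, Ifi35, a partner of other interferon-induced proteins, ranged over 2053 to 2451. Trim30a, a ubiquitin ligase family member, ranged over 1144 to 1364, with both knockout arrays below the other 4 (log2 -0.15 ± 0.15 against WT vehicle). Its other probe set gave 0.01 ± 0.14 for that comparison. Xaf1, a pro-apoptotic protein, ranged over 346.9 to 656.4, and the 2 extremes were the 2 knockout arrays. Rtp4, a chaperone of cell surface receptors, ranged over 117.1 to 284.4, and the 2 extremes were the 2 WT vehicle arrays. For these last 2 genes the arrays of 1 group thus enclosed all the others.

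Members whose groups did not overlap were counted and set beside the shares of all genes. With ATL1222 against WT vehicle 3 members lay above (Igtp, Irf9, Parp14) and 4 below (Ifit2, Irf7, Rsad2, Zbp1), or 11.5% and 15.4%, against 14.5% and 16.3% of all genes. In the knockout against WT vehicle 2 lay above (Bst2, Irf9) and 4 below (Irf7, Parp14, Trim30a, Zbp1), or 7.69% and 15.4%, against 15.9% and 13.7%. With ATL1222 against the knockout 4 lay above (Ifih1, Igtp, Parp14, Trim30a) and 4 below (Bst2, Ifit2, Oasl1, Rsad2), 15.4% each, against 17.4% and 20.9%.

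The classes were compared by their medians, with no test because the members were chosen with results known. The median log2 difference of type I members was -0.11 with ATL1222 against WT vehicle, -0.03 in the knockout against WT vehicle, and -0.02 with ATL1222 against the knockout. For gamma-type members it was 0.04, -0.08 and 0.09 in the same order, and for all genes -0.01, 0.00 and -0.02. By sign, 6 of 17 type I members were higher with ATL1222 than in WT vehicle, 6 of 17 were higher in knockout than in WT vehicle cells, and 7 of 17 higher with ATL1222 than in the knockout. Of the 9 gamma-type members 6, 1 and 8 were higher in these comparisons, which share arrays. Among all 10916 genes 5310, 5551 and 5084 were higher, and 51.4%, 49.1% and 53.4% were lower. Leaving out single arrays moved the gamma-type median between -0.12 and 0.17 with ATL1222 against WT vehicle, negative without replicate 1 of WT ATL1222 or replicate 2 of WT vehicle. In the knockout against WT vehicle the range was -0.21 to 0.06, positive without replicate 2 of KO vehicle or replicate 1 of WT vehicle. With ATL1222 against the knockout it was -0.01 to 0.20, negative without replicate 2 of KO vehicle.

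The 2 arrays of a group differed from each other in a patterned way for the gamma-type members. Replicate 1 was above replicate 2 in all 3 groups for 6 of 9 of them (Irf1, Ifi47, Gbp2, Gbp3, Igtp and Psmb9), and below in all 3 for 0. Over all genes the shares were 24% above and 15.2% below. For type I members 3 of 17 were above in all 3 groups (Isg20, Bst2 and Ifih1) and 4 below (Irf7, Trim30a, Xaf1 and Parp14). The median of replicate 1 minus replicate 2 for gamma-type members was 0.09 in WT ATL1222, 0.27 in KO vehicle and 0.29 in WT vehicle on the log2 scale. The same median was 0.00, -0.02 and 0.16 for type I members, and 0.01, 0.06 and 0.06 for all genes. In both vehicle groups the step between replicates of the gamma-type members was thus larger than any of their median differences between groups. The poly-A controls moved the same way between replicates, and their part in this was not tested.

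**Figure D3:**
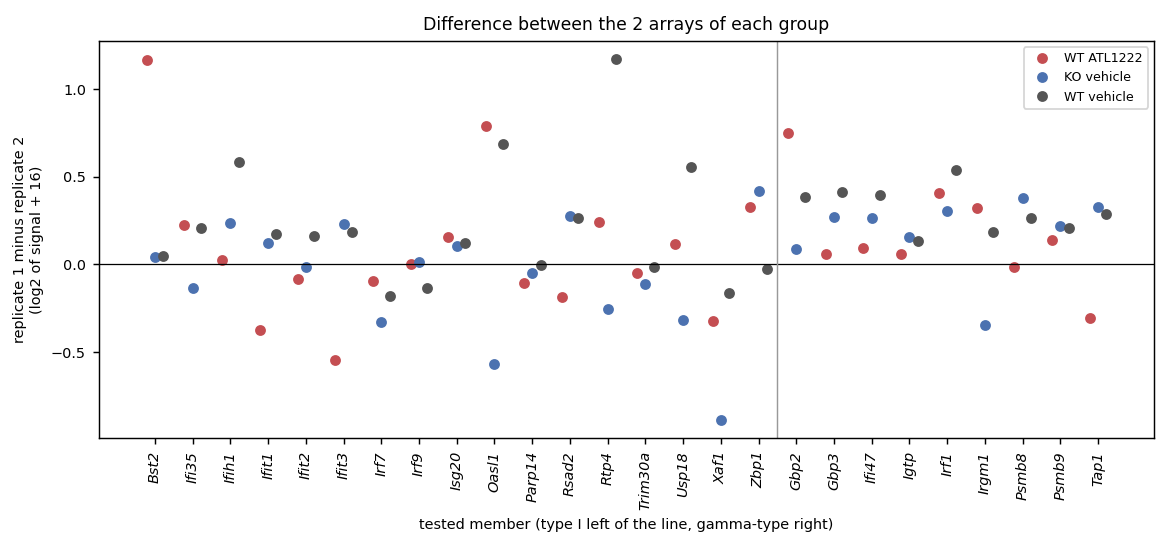
Replicate 1 minus replicate 2 in log2(signal + 16) (y axis) for each tested member, type I left of the grey line and gamma-type right, in WT ATL1222, KO vehicle and WT vehicle. Most gamma-type points lie above 0 in all groups, type I points lie on both sides, and the highest are Rtp4 in WT vehicle (1.17) and Bst2 in WT ATL1222 (1.17).

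Upstream of the members, interferon genes themselves were dim. Of 13 listed ligands, 8 had a probe set and 0 were above the limit. Ifng, the gene of interferon gamma, had 73.0 and 13.4 with ATL1222, 34.5 and 35.7 in the knockout, and 41.2 and 42.1 in WT vehicle. Ifnb1, the gene of interferon beta, ranged over 20.5 to 61.1.

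Genes of the interferon receptors and their signalling chain were followed beside the members. Of 11 receptor, kinase and STAT genes 9 were tested, and 1 rose with ATL1222 against the knockout, where the share of all genes that rose was 0.879%. This was Ifngr1, the ligand-binding chain of the interferon gamma receptor. It had signals of 8395 and 6448 with ATL1222, 4351 and 3766 in the knockout, and 5346 and 4251 in WT vehicle. The agonist arrays were above all 4 vehicle arrays. The log2 difference was 0.86 ± 0.16 against the knockout (adjusted p = 0.0178), with a 95% interval of 1.43- to 2.30-fold. Against WT vehicle it was 0.62 ± 0.16, which passed with the replicate block (adjusted p = 0.00463) and not without it (adjusted p = 0.256). The knockout differed from WT vehicle by -0.24 ± 0.16 (adjusted p = 1.00). The call against the knockout was lost without replicate 1 of WT ATL1222 (0.67, adjusted p = 0.324), without replicate 2 of KO vehicle (0.76, adjusted p = 0.113), and with no variance trend (adjusted p = 0.406). With no filter, probe sets averaged or every probe set separate, the adjusted p was 0.0547, 0.0893 or 0.0640. Summed markers of CD8 T and NK cells and of B cells did not overlap between WT ATL1222 and KO vehicle. CD8 T and NK cell markers, 2 of 5 above the limit, reached 339.7 to 377.4 with ATL1222, 478.3 to 523.4 in the knockout, and 348.6 to 483.8 in WT vehicle. B cell markers, 4 of 5 above it, summed to 789.6 to 800.7 with ATL1222, 763.2 to 766.6 in the knockout, and 687.3 to 816.0 in WT vehicle. With ATL1222 against the knockout Cd8b1 differed by log2 -0.44 ± 0.30 and Nkg7 by -0.03 ± 0.38. Of the 4 tested B cell markers 3 were higher and 1, Ebf1, was lower (-0.56 ± 0.39). Myeloid sums overlapped, at 264.0 to 330.5 with ATL1222 and 306.7 to 363.8 in the knockout. So did the plasmacytoid dendritic cell sums without Bst2, given above. The part of these cells in the Ifngr1 values was not tested.

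Of the 7 Treg markers above the limit, 2 also rose with ATL1222 against the knockout, where 0.879% of all genes rose. Tnfrsf18, the receptor GITR, had signals of 7823 and 6331 with ATL1222, 3623 and 2921 in the knockout, and 5124 and 3923 in WT vehicle, with a log2 difference of 1.11 ± 0.17 against the knockout (adjusted p = 0.00326). It did not pass without replicate 1 of WT ATL1222 (0.96, adjusted p = 0.0638) or with no variance trend (adjusted p = 0.287). Against WT vehicle Tnfrsf18 differed by 0.65 ± 0.17, which passed with the replicate block (adjusted p = 0.00359) and not without it (adjusted p = 0.249). Ctla4, an inhibitory receptor, had 6410 and 5699 with ATL1222, 3432 and 3759 in the knockout, and 5125 and 3703 in WT vehicle, with a log2 difference of 0.75 ± 0.16 against the knockout (adjusted p = 0.0370). The call of Ctla4 was lost without either array of WT ATL1222 (adjusted p = 0.391 without replicate 1 and 0.101 without replicate 2) and without either array of KO vehicle (0.170 and 0.0775). It was also lost with no filter (0.0920), no variance trend (0.456), probe sets averaged (0.126) or every probe set separate (0.112). Nrp1, a surface marker of Tregs, was lower by a log2 difference of -0.40 ± 0.14, which passed with the block (adjusted p = 0.0332) and with quantile normalization (adjusted p = 0.0494) and not without either (adjusted p = 0.369). The part of these differences in the Ifngr1 values was not tested.

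Its partner chain Ifngr2 had overlapping groups, with 210.7 and 266.2 with ATL1222, 140.6 and 270.8 in the knockout, and 131.7 and 285.3 in WT vehicle. Jak2, the kinase bound to Ifngr2, had 2206 and 1872 with ATL1222, 1336 and 1392 in the knockout, and 1732 and 1186 in WT vehicle. Its log2 difference of 0.57 ± 0.18 with ATL1222 against the knockout passed with the replicate block (adjusted p = 0.0450) and not without it (adjusted p = 0.251). Stat2, the type I partner of Irf9, had 82.1 and 93.7 with ATL1222, 135.0 and 158.8 in the knockout, and 122.0 and 124.7 in WT vehicle, and its difference of -0.65 ± 0.35 between ATL1222 and the knockout did not pass (adjusted p = 0.685). The type I receptor chains Ifnar1 and Ifnar2 and the kinases Jak1 and Tyk2 had log2 differences between -0.15 and 0.26 in the 3 comparisons.

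**Figure D4:**
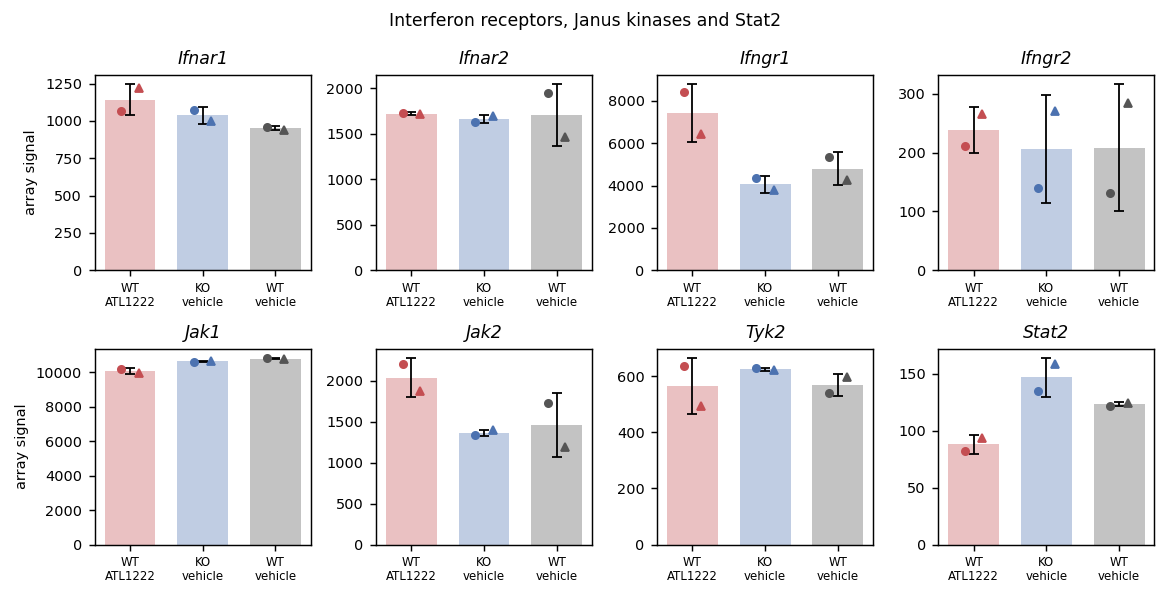
Array signal (y axis, linear, a separate scale for each gene) of 8 interferon receptor, kinase and STAT genes. Bars are means and error bars SD of the 2 arrays of WT ATL1222, KO vehicle and WT vehicle, with each array as a point. In Ifngr1 and Jak2 both agonist arrays stand above the 4 vehicle arrays, and in Stat2 they stand below them.

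Among 10 tested feedback genes 1, Dusp1, rose with ATL1222 against the knockout, where 0.879% of all genes rose. Dusp1 is a phosphatase of MAP kinases. It had signals of 4040 and 3377 with ATL1222, 1516 and 901.2 in the knockout, and 2110 and 1677 in WT vehicle, a log2 difference of 1.65 ± 0.21 against the knockout (adjusted p = 8.32e-04), which did not pass with no variance trend (adjusted p = 0.219). Against WT vehicle it was 0.97 ± 0.21, which did not pass in the fit of all 6 arrays (adjusted p = 0.0976). It passed with the replicate block (adjusted p = 0.00166), with only the 4 arrays compared (0.00674), and without replicate 1 (0.0115) or replicate 2 (0.00803) of KO vehicle. Socs1, the main brake on the interferon gamma receptor, had 83.1 and 128.3 with ATL1222, 127.1 and 114.2 in the knockout, and 102.4 and 159.3 in WT vehicle. Its largest log2 difference was -0.27 ± 0.37, with ATL1222 against WT vehicle.

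A further list of 31 type I genes had 24 tested. In the main fit, which had no block, 0 of them passed in any comparison. In the order used above, 2, 2 and 4 were below an unadjusted p of 0.05, where 5.03%, 3.89% and 8.48% of all genes were. Their median log2 difference was -0.19 with ATL1222 against WT vehicle, -0.00 in the knockout against WT vehicle, and -0.06 with ATL1222 against the knockout. Ifi27l2a, an interferon-induced gene, had 6499 and 5994 with ATL1222, 8415 and 8061 in the knockout, and 8567 and 7173 in WT vehicle. The agonist arrays were the lowest, with log2 -0.40 ± 0.13 against the knockout, which passed with the block (adjusted p = 0.0402) and with quantile normalization (adjusted p = 0.0215) but not without either (adjusted p = 0.283). Slfn1, a growth-restraining Schlafen gene, had 510.4 and 348.4 with ATL1222, 651.7 and 763.9 in the knockout, and 683.6 and 547.4 in WT vehicle. The agonist arrays were again the 2 lowest, with log2 -0.72 against the knockout (adjusted p = 0.197). Samd9l went the other way, with 1361 and 1338 with ATL1222, 1137 and 1082 in the knockout, and 1200 and 1140 in WT vehicle. With ATL1222 against WT vehicle 6 of 24 lay above without overlap and 7 below (25% and 29.2%), against 14.5% and 16.3% of all genes. In the knockout against WT vehicle 3 lay above and 6 below (12.5% and 25%), against 15.9% and 13.7%. With ATL1222 against the knockout 4 lay above and 6 below (16.7% and 25%), against 17.4% and 20.9%.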

How the data were processed

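The authors deposited linear intensities (signals) of 45101 probe sets on 6 arrays, processed with GCOS per the submitters' processing notes. Its version and its summarization method were not given in the sources used here. Each deposited array had the same mean after its top and bottom 2% were left out (250.0), and that scaling was kept. Control probe sets (64) and those with several genes (932) or none listed (9160) were left out, and symbols were updated by Entrez identifier for 34741 of 34945 probe sets. Each of 18193 genes took its probe set with the highest mean of log2(signal + 16), a scale that understates changes of dim genes. The lowest 40% by that mean were left out (limit 6.45, or 71.2 in signal), and 10916 genes were tested.

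Differences were fitted with limma 3.58.1 in R 4.3.3, all 6 arrays in 1 fit with a variance trend, and p-values were adjusted over all genes. With 2 arrays a group, the smallest two-sided p of an exact permutation test is 0.33. Replicates 1 and 2 recur in each group: deviations from the group means of arrays with the same number correlated across genes at 0.147, 0.230 and 0.230 in the 3 pairs of groups. They were therefore also fitted as a block, although the labels tie the numbers to no shared day or animal. Precision is limited by the number of arrays. The scripts were tested on simulated data.

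The members and lists were chosen with earlier results of these data known, so no p over the list is given. Every member is accounted for. Values on each array are given for the 3 with the smallest p and the 3 with the largest difference in each comparison, and for Psmb8, Psmb9, Tap1, Igtp, Irf1, Irf9, Usp18 and Ifit2, chosen for their roles after values were seen. Ranges are given for the rest. Slfn1 and the genes of the other lists named without passing were chosen after their values were seen. Alternatives covered the pseudocount, filter, variance trend, normalization, arrays in the fit, probe set choice, block and each array left out. The receptor's own gene is not reported here.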

Additional observations from a re-analysis of the deposited data

How the results depend on the processing

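Under 17 alternatives 0 tested members passed in any comparison. The smallest adjusted p over them was 0.632 with ATL1222 against WT vehicle, 0.595 in the knockout against WT vehicle and 0.0823 with ATL1222 against the knockout. The sign of a member's difference turned in 30, 38 and 25 of 438 values in the same order. Where the difference exceeded its standard error it turned for Gbp3 with ATL1222 (-0.00 without replicate 2 of WT vehicle) and for Ifi47 in the knockout (0.03 without replicate 1 of WT vehicle). The cause was not tested. The number of all genes called moved more. With ATL1222 against WT vehicle it was 23, and 14 with no filter, 36 with the lowest 60% left out, 0 with no variance trend, 36 with cyclic loess, 44 with only the 4 arrays compared, 3 with probe sets averaged, 79 with the replicate block, and 5 to 39 with single arrays left out. In the knockout it was 3, and 0 with no variance trend, with probe sets averaged and with every probe set separately, 9 with the replicate block, and 3 to 7 with single arrays left out. With ATL1222 against the knockout it was 109, and 70 with no filter, 5 with no variance trend, 44 with probe sets averaged, 264 with the replicate block, and 42 to 133 with single arrays left out. Leaving out single arrays moved the type I median between -0.171 and -0.0311 with ATL1222 against WT vehicle and between -0.141 and 0.0293 in the knockout, the gamma-type median with ATL1222 between -0.119 and 0.168, and type I minus gamma-type with ATL1222 between -0.218 and 0.00997. The replicate block changed the calls of Ifngr1, Dusp1 and Tnfrsf18 (with ATL1222 against WT vehicle) and of Jak2, Ifi27l2a, Tapbpl and Nrp1 (with ATL1222 against the knockout), and no call of a member. Array number and the dim signals of the synthetase and Mx genes limit what could be seen.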

Other observations

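Genes that sense nucleic acids upstream of interferon production were also followed. Of 18 listed, 15 were tested and 0 passed in any comparison (limma adjusted p), with 0, 0 and 1 below an unadjusted p of 0.05 with ATL1222 against WT vehicle, in the knockout against WT vehicle, and with ATL1222 against the knockout, where 5.03%, 3.89% and 8.48% of all genes were. With ATL1222 against WT vehicle 12 of 15 (80%) had a negative log2 difference, where 51.4% of all genes did, and the median was -0.11, where that of all genes was -0.01. Ddx58, the gene of the cytosolic RNA sensor RIG-I, had signals of 387.5 and 288.6 with ATL1222, 416.1 and 302.6 in the knockout, and 439.2 and 312.0 in WT vehicle. Replicate 1 was above replicate 2 in each group, and the groups overlapped.

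Further gamma-type genes gave 15 tested of 23, of which 0 passed in the main fit, which had no block. In the same order 1, 0 and 1 were below an unadjusted p of 0.05, against the same shares of all genes. B2m, the light chain of MHC class I molecules, stayed within 30733 to 33106 on the 6 arrays. Tapbpl, which edits the peptides of class I molecules, had 982.6 and 874.0 with ATL1222, 680.2 and 540.9 in the knockout, and 754.2 and 627.8 in WT vehicle. Its agonist arrays were above the other 4, with a log2 difference of 0.60 ± 0.18 against the knockout, which passed with the replicate block (limma adjusted p = 0.0362) and not without it (limma adjusted p = 0.225). With ATL1222 against the knockout 8 of 15 of these genes lay above without overlap (53.3%), against 17.4% of all genes, and 1 lay below (6.67%), against 20.9%. Their median log2 difference was 0.09, and that of all genes -0.02. With ATL1222 against WT vehicle 2 lay above and 2 below (13.3% each), against 14.5% and 16.3% of all genes, and in the knockout against WT vehicle 0 lay above and 2 below (13.3%), against 15.9% and 13.7%. The list was chosen with results of these data known.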
